A study of Mus musculus with 24 samples.

Results

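Transcripts of 10 genes that mark the lining epithelium of the colon were followed through RNA-seq libraries of sorted tumor macrophages. The genes were Krt8, Krt18 and Krt19 (keratins), Epcam and Cdh1 (adhesion), Car1, Cyp2c55 and Ces2a (enzymes of the mature colonocyte) and Lgals4 and Dmbt1 (a lectin and a mucosal scavenger protein), 10 of the 55487 gene IDs in the count table. They were taken by symbol, and they had been chosen from earlier results on their counts in these libraries. All levels of the 10 genes are therefore given as a description, without a test. Macrophages carrying CD45, CD11b and F4/80 were sorted after Liberase digestion and red cell lysis of orthotopic MC38 tumors in C57BL/6J mice. MC38 is a mouse colon carcinoma line. The groups were APC-KO tumor 2, APC-KO tumor 1, APC-WT tumor 2 and APC-WT tumor 1, where KO and WT give the state of the tumor suppressor Apc in the implanted MC38 cells and not in the host macrophages. Each tumor gave 6 libraries, 24 in all, by an ultra low input Nextera XT protocol. The labels call these replicates of 1 sample per tumor, so the spread between them may be technical, and each genotype rests on 2 tumors. Age and sex of the mice, the way Apc was removed and the number of clones are not given in the sources used here.

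Keratin 8 and keratin 18 pair into the filaments of simple epithelia, and keratin 19 joins them in the gut. EpCAM and E-cadherin (Cdh1) hold neighbouring epithelial cells together. Along the colon crypt, cells leave the base, stop dividing and switch on enzymes of the surface such as carbonic anhydrase 1 (Car1), the cytochrome P450 Cyp2c55 and the carboxylesterase Ces2a. Galectin-4 (Lgals4) binds glycans at the brush border, and Dmbt1 is secreted into mucus. Macrophages are not a textbook site of these proteins, and gut macrophages lie next to cells that make them and take up dying ones.

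Promoter sequence is shown for Cyp2c55 and Ces2a, which had the largest ratio between the 2 APC-WT tumors, and for the filament partners Krt8 and Krt18, whose levels did not keep 1 ratio. RefSeq promoters (GRCm38.p6) were found for 6 of the 10 genes. Each window is the 250 bases before the RefSeq start, 5′ to 3′ on the gene's strand, at chr19:39006769-39007018 (plus strand), chr8:104733753-104734002 (plus strand), chr15:102004343-102004592 (minus strand) and chr15:102027966-102028215 (plus strand). Capitals mark matches, on either strand, to 4 motifs: the TATA box with the letters TATAAA, the CDX motif with TTTATNG, the HNF4 motif with CAAAGTCC and the E-box with CACCTG.
Cyp2c55: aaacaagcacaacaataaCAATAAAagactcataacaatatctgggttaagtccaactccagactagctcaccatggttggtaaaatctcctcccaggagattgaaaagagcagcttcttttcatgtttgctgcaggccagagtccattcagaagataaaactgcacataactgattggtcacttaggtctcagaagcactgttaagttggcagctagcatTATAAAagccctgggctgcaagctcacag
Ces2a: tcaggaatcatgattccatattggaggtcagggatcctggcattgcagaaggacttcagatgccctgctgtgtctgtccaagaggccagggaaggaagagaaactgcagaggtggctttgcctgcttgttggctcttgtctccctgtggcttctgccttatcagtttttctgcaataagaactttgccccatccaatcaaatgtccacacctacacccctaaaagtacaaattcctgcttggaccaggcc
Krt8: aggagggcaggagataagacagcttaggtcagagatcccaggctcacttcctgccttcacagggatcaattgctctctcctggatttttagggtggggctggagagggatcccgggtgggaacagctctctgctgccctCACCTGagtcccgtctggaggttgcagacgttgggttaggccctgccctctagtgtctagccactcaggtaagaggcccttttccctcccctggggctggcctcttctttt
Krt18: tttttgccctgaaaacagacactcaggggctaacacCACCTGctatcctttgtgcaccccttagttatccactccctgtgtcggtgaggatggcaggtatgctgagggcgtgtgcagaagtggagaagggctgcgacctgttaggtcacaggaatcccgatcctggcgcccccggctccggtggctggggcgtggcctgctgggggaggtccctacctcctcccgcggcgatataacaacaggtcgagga

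Cyp2c55 had a TATA box whose first base lay 29 bases before the start and a CDX match on the other strand 232 bases before it. Ces2a matched none of the 4 motifs. Krt8 and Krt18 each had 1 E-box, 111 and 214 bases before the RefSeq start. Both windows reach into the genes as annotated in GENCODE, at chr15:101996698-102004482 (Krt8) and chr15:102028180-102032027 (Krt18). The Krt8 E-box lies inside that span, and the Krt18 E-box lies before it. None of these matches overlapped another. Of 32851 mouse promoters of the same length, 12.4% held the TATA box, 9.81% the CDX letters, 1.196% the HNF4 letters and 17.2% the E-box. Epcam (CDX and E-box) and Lgals4 (E-box) also had matches. A match is a match of letters and not a binding site.

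Counts per library ran between 8895722 and 93568353, with 13464061 to 17196820 in APC-KO tumor 2, 8895722 to 19328572 in APC-KO tumor 1, 28018638 to 46837543 in APC-WT tumor 2 and 74972634 to 93568353 in APC-WT tumor 1. Loci resembling the satellite-like gene Gm10800 took 37.2% to 39.4% of counts in the APC-KO libraries and 1.18% to 7.24% in the APC-WT libraries. Levels are therefore given as scaled CPM, CPM taken over the TMM-scaled total of 3941 expressed genes. Genes that should be silent still had counts. Over 1974 olfactory and vomeronasal receptor genes (Olfr and Vmn), this expected background per kb of exon was 3.95 scaled CPM in APC-KO tumor 2, 3.92 in APC-KO tumor 1, 0.547 in APC-WT tumor 2 and 0.0764 in APC-WT tumor 1. A gene was taken as above background where its level per kb in a tumor passed the 99th percentile of these receptor genes, which was 14.5, 13.4, 1.34 and 0.301 in the same order. All 12 macrophage marker genes, among them the sort antigens Ptprc (CD45), Itgam (CD11b) and Adgre1 (F4/80), passed this limit in all 4 tumors.

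All 10 epithelial genes were above background in both APC-WT tumors, and 6 of 10 were in each APC-KO tumor. The 6 were Krt8, Krt18, Krt19, Epcam, Car1 and Lgals4. Cdh1, Cyp2c55, Ces2a and Dmbt1 did not pass the limit in either APC-KO tumor. That limit was 14.5 and 13.4 scaled CPM per kb in APC-KO tumors 2 and 1, against 1.34 and 0.301 in APC-WT tumors 2 and 1. The member nearest inside the limit was Krt18, at 19.7 scaled CPM per kb in APC-KO tumor 2 and 17.0 in APC-KO tumor 1, and the nearest outside it was Cdh1, at 9.54 and 8.84. The APC-KO count rests on the chosen limit: with the highest receptor gene as the limit, 1 member (Krt8) passed in APC-KO tumor 2 and 0 in APC-KO tumor 1, while 10 passed in each APC-WT tumor.

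**Figure D1:**
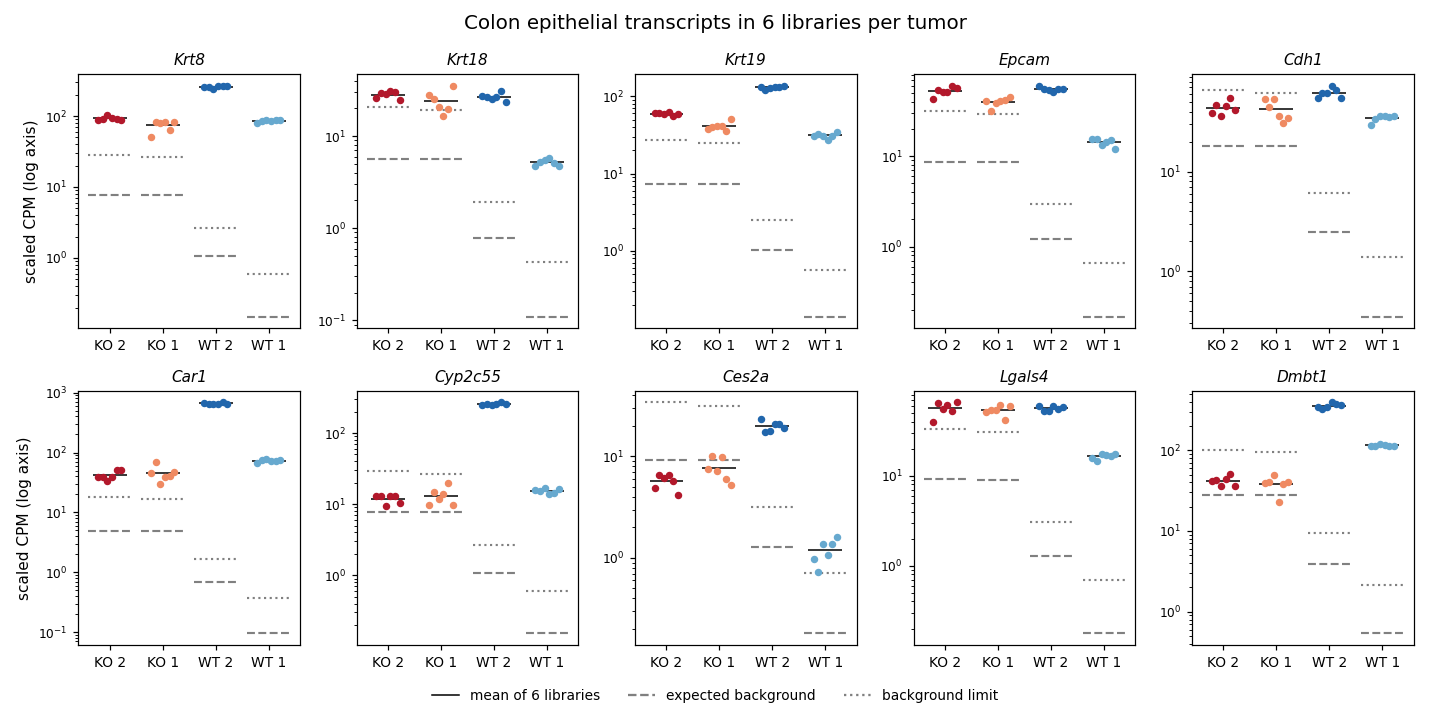
Scaled CPM (log axis) of each of the 10 genes in the 6 libraries of each tumor, with the mean as a black bar, the expected background dashed and the background limit dotted. All 10 genes stood higher in every library of APC-WT tumor 2 than in any of APC-WT tumor 1, and in the APC-KO tumors Cdh1, Cyp2c55, Ces2a and Dmbt1 lay under the dotted line.

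Among the keratins, Krt8 (ENSMUSG00000049382, GRCm38 chr15:101996698-102004482) had the highest level per kb in both APC-KO tumors. Its 6 libraries held 86.6, 90.5 and 104.8 scaled CPM (lowest, median and highest) in APC-KO tumor 2 and 51.2, 80.4 and 83.1 in APC-KO tumor 1. They held 243, 262 and 268 in APC-WT tumor 2 and 79.3, 86.3 and 88.1 in APC-WT tumor 1. The libraries of APC-WT tumor 2 thus stood above all others, and those of APC-WT tumor 1 fell within the span of the APC-KO libraries. These levels were 12.01, 9.61, 239 and 564 times the expected background of the same tumors. In bulk RNA, fewer cells of a type and less RNA per cell cannot be told apart, here and for every gene below.

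Krt19 (chr11:100140810-100148665) showed the same order of tumors as Krt8 within each genotype. It measured 55.0, 60.0 and 62.7 scaled CPM in APC-KO tumor 2 and 35.7, 40.8 and 51.1 in APC-KO tumor 1, against 122, 130.2 and 137 in APC-WT tumor 2 and 27.5, 30.9 and 34.7 in APC-WT tumor 1. With background left in, every library of APC-KO tumor 1 lay above every library of APC-WT tumor 1 and below every library of APC-WT tumor 2. After background subtraction APC-KO tumor 1 (28.8 to 44.2) overlapped APC-WT tumor 1 (27.3 to 34.6). Krt18 (chr15:102028180-102032027) lies 23697 bases from its partner Krt8 in the annotation. It held 24.5, 29.1 and 30.9 scaled CPM in APC-KO tumor 2 and 16.3, 23.1 and 35.3 in APC-KO tumor 1, against 23.7, 26.6 and 30.5 in APC-WT tumor 2 and 4.75, 5.16 and 5.82 in APC-WT tumor 1. Only APC-WT tumor 1 stood apart for Krt18.

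The filament partners did not keep 1 ratio. After subtraction of the expected background, Krt8 and Krt18 stood at 43.5 and 15.7 scaled CPM per kb in APC-KO tumor 2 and at 33.7 and 13.1 in APC-KO tumor 1. The same levels were 130.2 and 17.8 in APC-WT tumor 2 and 43.1 and 3.51 in APC-WT tumor 1. Both genes have annotated copies, so their counts are uncertain to that extent. The pseudogene Krt8-ps shares 32.2% of the 31-base words of Krt8 and held 8.95, 9.62, 3.76 and 1.19 scaled CPM in APC-KO tumor 2, APC-KO tumor 1, APC-WT tumor 2 and APC-WT tumor 1. Gm5200 shares 9.31% of those of Krt18 and held 11.1, 13.3, 0.904 and 0.267 in the same order.

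Of the adhesion genes, Epcam (chr17:87635979-87651129) was above background in all tumors. It held 43.1, 52.4 and 60.4 scaled CPM in APC-KO tumor 2 and 31.9, 40.6 and 44.9 in APC-KO tumor 1, against 51.3, 55.3 and 59.6 in APC-WT tumor 2 and 11.9, 14.8 and 15.6 in APC-WT tumor 1. The libraries of APC-WT tumor 2 overlapped those of APC-KO tumor 2, and APC-WT tumor 1 was below the rest. Cdh1 (chr8:106603351-106670246) differed least between tumors. It measured 35.9, 43.3 and 54.4 in APC-KO tumor 2 and 30.8, 40.4 and 54.0 in APC-KO tumor 1, against 54.4, 61.5 and 73.0 in APC-WT tumor 2 and 29.6, 35.5 and 36.4 in APC-WT tumor 1. In the APC-KO tumors the expected background of this long transcript was 18.1 and 17.9, so its level was 2.41 and 2.26 times background there.

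The 3 colonocyte enzymes gave the widest gaps between the 2 APC-WT tumors. Car1 (chr3:14766216-14808368), which interconverts carbon dioxide and bicarbonate, held 32.9, 39.3 and 51.1 scaled CPM in APC-KO tumor 2 and 30.3, 42.8 and 68.3 in APC-KO tumor 1. It held 649, 655 and 686 in APC-WT tumor 2, the highest level per kb of the 10 genes there, and 66.8, 73.1 and 76.9 in APC-WT tumor 1. The pseudogene Gm5843 carries 20.1% of the 31-base words of Car1 and held between 0.160 and 5.48 scaled CPM. Cyp2c55 (chr19:39007019-39042693), a fatty acid oxygenase, held 9.58, 12.8 and 13.1 in APC-KO tumor 2 and 9.64, 12.8 and 19.6 in APC-KO tumor 1, against 246, 255 and 269.9 in APC-WT tumor 2 and 13.9, 15.6 and 16.8 in APC-WT tumor 1. The APC-KO levels of Cyp2c55 were 1.51 and 1.79 times the expected background. The overlap of APC-KO tumor 1 with APC-WT tumor 1 thus compares a level near background with one 101 times its background. Ces2a (chr8:104734003-104741634), an ester hydrolase of intestine and liver, held 4.20, 5.99 and 6.56 in APC-KO tumor 2 and 5.21, 7.40 and 10.1 in APC-KO tumor 1, where its summed level lay below the expected background of 9.33 and 9.24. In APC-WT tumor 2 it held 17.3, 20.1 and 23.4, and in APC-WT tumor 1 it held 0.731, 1.21 and 1.60, from 3022 and 434 counts over the 6 libraries. The pseudogene Gm7208 carries 24.7% of the 31-base words of Ces2a, and its levels were 2.85, 2.81, 0.729 and 0.0979 scaled CPM in APC-KO tumor 2, APC-KO tumor 1, APC-WT tumor 2 and APC-WT tumor 1.

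The remaining pair are proteins of the luminal surface. Lgals4 (chr7:28833854-28841708) held 39.5, 58.0 and 65.3 scaled CPM in APC-KO tumor 2 and 42.0, 53.6 and 61.6 in APC-KO tumor 1, against 52.2, 56.8 and 60.2 in APC-WT tumor 2 and 14.5, 16.8 and 17.4 in APC-WT tumor 1. Like Krt18, it was lower in APC-WT tumor 1 and overlapped among the other 3 tumors. Dmbt1 (chr7:131032053-131121630) held 35.9, 42.1 and 51.0 in APC-KO tumor 2 and 23.1, 39.7 and 49.1 in APC-KO tumor 1, against 327, 351 and 391 in APC-WT tumor 2 and 112, 114 and 121 in APC-WT tumor 1. With background left in, it was the one gene of the 10 whose APC-KO libraries all lay below all APC-WT libraries. After background subtraction this held for Car1 and Cyp2c55 as well. Their highest APC-KO libraries were then at 63.2 and 12.2 scaled CPM, and their lowest APC-WT libraries at 66.7 and 13.8. In the APC-KO tumors Dmbt1 stood at 1.49 and 1.38 times the expected background.

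Between the 2 APC-WT tumors all 10 genes were higher in tumor 2 and none overlapped between the libraries, where 57.7% of all 45451 genes tested were also higher and 3.51% lower without overlap. The ratio of APC-WT tumor 2 over APC-WT tumor 1 was 16.5 for Cyp2c55, 16.5 for Ces2a and 9.06 for Car1, the 3 enzymes. It was 5.11 for Krt18, 4.15 for Krt19 and 3.03 for Krt8, 3.88 for Epcam and 1.79 for Cdh1, and 3.41 for Lgals4 and 3.06 for Dmbt1. On the log2 scale the changes ran between 0.84 ± 0.117 (SE) for Cdh1 and 4.06 ± 0.183 for Ces2a, with a median of 2.00, beside a median of 1.93 over all genes tested and -0.02 over expressed genes. The expected background per kb was also higher, at 0.547 against 0.0764 scaled CPM. After its subtraction the median of all genes was 0.41, while the change was 0.80 for Cdh1, 1.76 for Lgals4 and 4.20 for Ces2a. With TMM over all genes the expressed genes moved to a median of -1.38 and Cdh1 turned to -0.52; the other 9 genes kept a positive change.

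The summed background-subtracted level of the 10 genes was 287, 335 and 359 scaled CPM (lowest, median and highest library) in APC-KO tumor 2 and 238, 268 and 310.0 in APC-KO tumor 1. It was 1808, 1864 and 1940.3 in APC-WT tumor 2 and 371, 388 and 403 in APC-WT tumor 1. The make-up of this sum differed between tumors. Krt8 was the largest part in both APC-KO tumors, with 25.6% in tumor 2 and 24.01% in tumor 1, followed by Krt19 (15.8%) and Lgals4 (14.4%) in tumor 2 and by Lgals4 (16.05%) and Car1 (14.7%) in tumor 1. Car1 was the largest part in APC-WT tumor 2 (35.4%), before Dmbt1 (18.7%) and Krt8 (13.8%), and Dmbt1 was the largest in APC-WT tumor 1 (29.4%), before Krt8 (21.8%) and Car1 (18.7%).

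**Figure D2:**
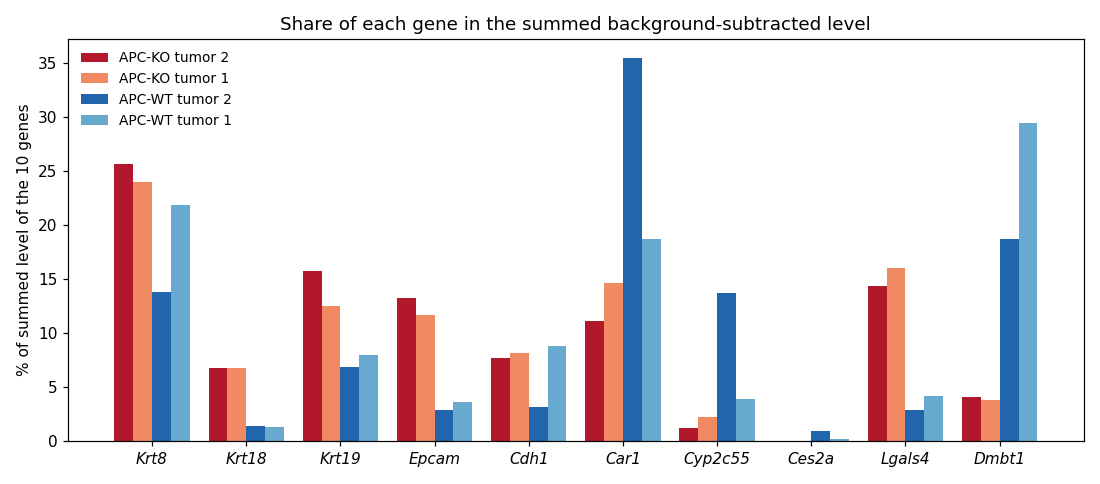
Share of each gene in the summed background-subtracted scaled CPM of the 10 genes, as percent, with 1 bar for each tumor (sum of 6 libraries; values below 0 set to 0). Car1 reached 35.4% in APC-WT tumor 2, and Krt8 held the largest share in both APC-KO tumors.

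Between the 2 APC-KO tumors 2 of 10 genes did not overlap, Krt8 and Krt19, both higher in tumor 2 by 0.33 and 0.53 on the log2 scale, where 0.86% of all genes were higher and 0.948% lower without overlap. The other 8 overlapped, with changes from -0.41 (Ces2a) upward. Libraries of these tumors varied more. The median coefficient of variation of the 10 genes was 13.1% in APC-KO tumor 2 and 22.8% in APC-KO tumor 1, against 5.49% in APC-WT tumor 2 and 7.28% in APC-WT tumor 1. Counts were also lower there. Counting noise alone gives 4.52% to 18.3% across the genes in APC-KO tumor 2 and 5.56% to 17.5% in APC-KO tumor 1. It gives 0.769% to 4.46% in APC-WT tumor 2 and 1.20% to 11.8% in APC-WT tumor 1. Its part in the greater variation was not tested.

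The APC-KO tumors were set against the APC-WT tumors with background left in. There 1 of 10 genes (Dmbt1) was lower without overlap of libraries and 0 were higher. Of all genes 2.31% were lower and 70.4% higher without overlap. The change of Dmbt1 was -2.54 ± 0.413 (SE) on the log2 scale. Cyp2c55 (-3.38) and Car1 (-3.06) had changes of larger size, with APC-WT tumor 1 far below APC-WT tumor 2. They overlapped only between APC-KO tumor 1 and APC-WT tumor 1. Their highest libraries in APC-KO tumor 1 were at 19.6 and 68.3 scaled CPM, and their lowest in APC-WT tumor 1 at 13.9 and 66.8. After background subtraction neither gene overlapped between genotypes. The share of all genes without overlap after subtraction is not given here. Without APC-WT tumor 2 the changes were -1.52 for Dmbt1, -0.73 for Car1 and -0.25 for Cyp2c55. Krt8 (-1.03), Krt19 (-0.65), Ces2a (-0.65) and Cdh1 (-0.18) were also negative, and Krt18 (0.74), Lgals4 (0.62) and Epcam (0.44) positive. These signs rest on single tumors. Without APC-WT tumor 2 Krt8 was at -0.02 and Krt19, Ces2a and Cdh1 turned to 0.71, 2.47 and 0.30, while Krt18, Lgals4 and Epcam were at 2.35, 1.76 and 1.73. Without APC-WT tumor 1 Epcam and Lgals4 turned to -0.23 and -0.01 and Krt18 was at 0.00. With an offset for transcript length Krt18 moved to 0.19, Lgals4 to 0.00 and Cdh1 to 0.32, and in the fit on libraries Ces2a turned to 0.43. Ces2a lay below the expected background in both APC-KO tumors, so its changes with background left in cannot be told from background there. In the background-subtracted fit Ces2a was at -13.4, with its negative APC-KO counts set to 0, Dmbt1 at -4.24 and Cdh1 at -0.94. With TMM over all genes all 3 positive changes turned, to -2.56 for Krt18, -2.85 for Lgals4 and -2.97 for Epcam. After background subtraction, the mean of the APC-KO tumors against that of the APC-WT tumors was 12.1 against 229.7 scaled CPM for Dmbt1, 5.09 against 134 for Cyp2c55, 38.7 against 363 for Car1, 38.2 against 33.9 for Epcam and 46.0 against 35.2 for Lgals4. The sort antigens moved with the genotype. Their library medians in APC-KO tumor 2, APC-KO tumor 1, APC-WT tumor 2 and APC-WT tumor 1 were 281, 285, 1721 and 1611 scaled CPM for Itgam and 275, 266, 1119.6 and 1271 for Adgre1. Of the 12 macrophage genes 2 were called higher and 5 lower in the APC-KO tumors by edgeR's quasi-likelihood test at an adjusted p below 0.05, where 7.45% and 2.51% of all genes were, and 0 higher and 4 lower on background-subtracted counts, where 10.9% and 7% of all genes were. Their summed levels were 27578 to 28228 and 26070.3 to 26994 scaled CPM in APC-KO tumors 2 and 1, against 25536 to 27615 and 30464 to 32801 in APC-WT tumors 2 and 1. The part of this difference in the epithelial levels was not tested.

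The other genes of the same tissue were read from 7 lists with 149 genes, none of them among the 10. A gene was called where edgeR's quasi-likelihood test gave an adjusted p below 0.05 over all genes and its level in the higher group was above background. Above background were 17 of 149 in APC-KO tumor 2, 20 in APC-KO tumor 1, 90 in APC-WT tumor 2 and 97 in APC-WT tumor 1. The limit per kb was higher in the APC-KO tumors, and the share of all genes above it is not given here. In the same order, 2, 0, 7 and 7 of 10 fibroblast genes and 3, 3, 7 and 9 of 10 dendritic cell genes passed it. For T, NK and B cell genes the counts were 5, 2, 10 and 11 of 15, and for endothelial genes 1, 2, 2 and 5 of 10. All 12 macrophage genes passed it in every tumor. The detected share differed by list. In APC-WT tumor 2, 33 of 38 colonocyte genes, 14 of 16 goblet cell genes and 25 of 30 junction genes were above background, against 3 of 16 crypt stem cell and Wnt target genes and 2 of 17 enteroendocrine and tuft cell genes. In APC-WT tumor 1 these counts were 31, 13, 27, 6 and 3.

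**Figure D3:**
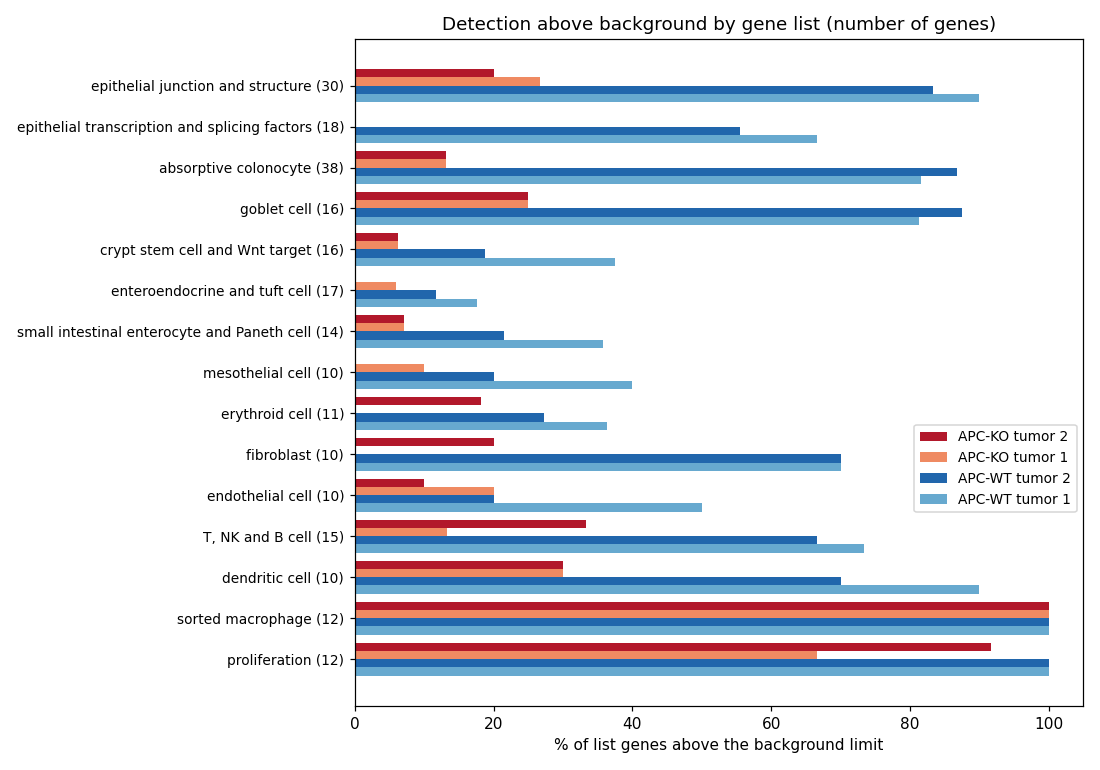
Percent of the genes of each list above the background limit of the tumor, by list (number of genes in brackets) and tumor. Colonocyte, goblet and junction genes were detected in most cases in the APC-WT tumors, with 33 of 38 colonocyte genes in APC-WT tumor 2, and 5 of 38 were in each APC-KO tumor. The limit per kb was higher in the APC-KO tumors.

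Between the APC-WT tumors, 86 of 148 list genes tested were higher in tumor 2 and 1 (Spint1) was lower, where 13.5% of all genes were called higher and 4.53% lower. The median change was 2.04 beside 1.93 over all genes. On background-subtracted counts 77 of 139 were higher and 1 lower, where 8.92% and 5.97% of all genes were, with a median of 1.71 beside 0.41. These p-values measure the spread between libraries of a tumor and not between mice. The count called higher was 48 with the highest receptor gene as the limit and 143 with no limit, and 16 genes were called lower with TMM over all genes.

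Junction genes were called higher in 24 of 30 cases. Cldn7, a claudin of the lateral membrane, had a median of 54.4 scaled CPM in APC-WT tumor 2 and 13.3 in APC-WT tumor 1 (log2 change 2.07 ± 0.0890 SE, adjusted p = 5.96e-17). Cldn3, Spint2 (an inhibitor of membrane proteases) and Dsg2 (a desmosomal cadherin) rose by 2.05, 2.14 and 2.04. Spint1, the other protease inhibitor of this family, fell in tumor 2, with 309 against 370 scaled CPM (medians). Of the transcription and splicing factors 10 of 18 were called higher, among them Elf3 (42.3 against 12.2), Klf5 (26.2 against 8.48), Hnf4a (19.0 against 5.21) and Ehf (7.42 against 1.23, the lower one within background).

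Colonocyte genes were called higher in 33 of 38 cases and lower in 0. Cdhr2, a cadherin of the brush border, measured 44.7 against 8.14 scaled CPM (log2 change 2.40 ± 0.115, adjusted p = 4.46e-16) and Myo1a, its motor protein, 30.1 against 6.405. Pigr, which carries IgA across the epithelium, measured 53.5 against 12.7 and the adhesion molecule Ceacam1 216 against 57.2. Goblet cell genes were called higher in 14 of 16, with the mucin Muc2 at 21.8 against 5.55, Clca1 at 10.1 against 1.76, Spink4 at 11.5 against 2.50 and the secretory factor Spdef at 3.52 against 0.609, which was within background. Muc2 missed the threshold on background-subtracted counts, with a change of 1.79 beside 1.93. Crypt stem cell and Wnt target genes were called in 1 of 16 (Sox9, 37.1 against 27.7), and Sox9 turned to -0.95 with TMM over all genes. Enteroendocrine and tuft genes were called in 2 of 17 (Chgb and Sct), and genes of the small intestine and Paneth cells in 2 of 13 (Alpi and Reg3b). Reg3b missed the threshold on background-subtracted counts (0.94 beside 1.15) and turned to -0.20 with TMM over all genes.

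**Figure D4:**
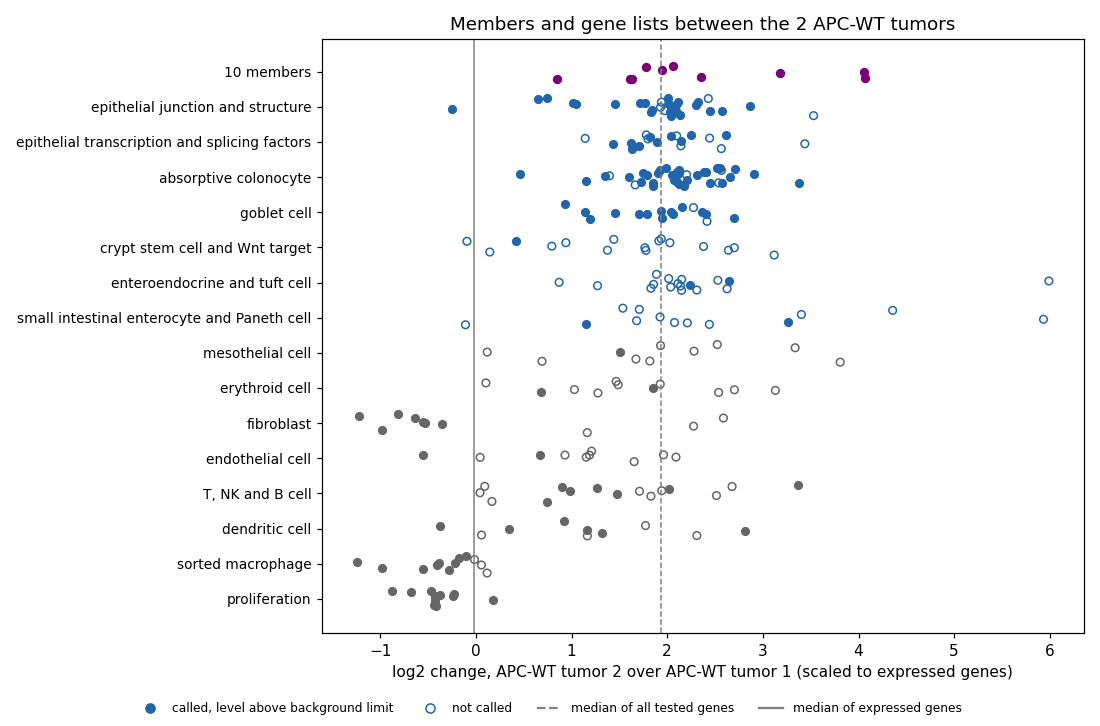
Log2 change of APC-WT tumor 2 over APC-WT tumor 1 for the 10 members (all filled, no test) and for each gene of the 15 lists, filled where called and open where not, epithelial lists in blue and other cell types in grey. Vertical lines give the median of all tested genes (1.93, dashed) and of expressed genes (-0.02, solid), and the 3 enzymes lie furthest to the right among the members.

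Marker lists of other cells moved between the same tumors, where 13.5% of all genes were called higher and 4.53% lower. Of 10 fibroblast genes 0 were called higher and 7 lower, with a summed level of 859 to 989 scaled CPM in APC-WT tumor 2 and 1603 to 1751 in APC-WT tumor 1. Of 12 proliferation genes 1 was higher and 11 lower (573 to 644 against 834 to 885), and of 12 macrophage genes 0 were higher and 9 lower (25536 to 27615 against 30464 to 32801). T, NK and B cell genes were higher in 7 of 15 (179 to 199.7 against 137 to 155), and dendritic cell genes higher in 5 and lower in 1 of 10 (282 to 320.2 against 337 to 375). Erythroid genes were higher in 2 of 11, Car2 and Bpgm, with Car2 also on the colonocyte list, and mesothelial genes in 1 of 10. Endothelial genes were higher in 1 and lower in 1 of 10. On background-subtracted counts 8.92% of all genes were called higher and 5.97% lower. There 4 of 15 T, NK and B cell genes were higher, and 3 of 10 dendritic cell genes were higher and 1 lower. Erythroid genes were higher in 1 of 9, mesothelial in 1 of 7, and endothelial genes higher in 1 and lower in 1 of 10. Lower were 6 of 8 fibroblast, 10 of 12 proliferation and 9 of 12 macrophage genes, with 0 higher in each. In the summed counts of the 2 APC-WT tumors no marker of these lists of other cells was at 0. Of the receptor genes, which should be silent, 99.9% in APC-WT tumor 2 and 99.5% in APC-WT tumor 1 also had counts. A count above 0 therefore does not show that such cells were present. The part of the list differences between the APC-WT tumors in the epithelial values was not tested.

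Few list genes were called between the APC-KO tumors. Between tumor 2 and tumor 1, 1 of 148 genes was called higher (Spink4) and 3 lower (Spint1, Lgals3 and Selenbp1), where 0.858% and 1.19% of all genes were. On background-subtracted counts 3 of 139 were higher and 3 lower, where 1.46% and 1.88% of all genes were. Lgals3, galectin-3, which macrophages also make, measured 1235 against 1934 scaled CPM, a change of -0.66 ± 0.0317 (adjusted p = 5.09e-15). Selenbp1, a colonocyte methanethiol oxidase, measured 48.5 against 80.2. Spint1 (-0.32) was not called without APC-KO tumor 2 replicate 2 (-0.30) or 4 (-0.28) or without APC-KO tumor 1 replicate 6 (-0.25).

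For APC-KO against APC-WT tumors, 5 of 149 genes were called higher and 3 lower, where 7.45% and 2.51% of all genes were. Among those higher were Atoh1, Best2, Sox9 and Lgals3. Lgals3 (0.81) was not called on background-subtracted counts (0.80), by DESeq2 (0.79), without APC-WT tumor 1 (0.60) or with the length offset (0.20). Sox9 (1.14) was not called by DESeq2 (1.13) or without APC-KO tumor 2 (0.94), and with TMM over all genes 0 of the 149 genes were called by edgeR, with 10 higher and 72 lower at an unadjusted p under 0.05. Atoh1, the goblet lineage factor, reached library medians of 51.9 and 57.7 in APC-KO tumors 2 and 1 on the scaled CPM scale, against 6.59 and 1.57 in APC-WT tumors 2 and 1 (log2 change 3.86 ± 0.620, adjusted p = 0.00192). A change of 3.57 was the median over all genes in this comparison. Lower were Spint1, Ceacam1 and Lyz1, with Ceacam1 at 45.2 and 40.0 against 216 and 57.2 and at -1.69 ± 0.469 (adjusted p = 0.0176). Its APC-KO levels were within background, its call was lost with the length offset (-1.25), and its change was -0.44 without APC-WT tumor 2. Lyz1 shares sequence with the abundant macrophage lysozyme Lyz2, so its counts are uncertain, and its call was lost by DESeq2 and without either APC-KO tumor. The counts depend on single tumors: 13 genes were higher without APC-WT tumor 2 and 3 without APC-KO tumor 2, and 23 were lower without APC-WT tumor 1. On background-subtracted counts 4 were higher and 9 lower, where 10.9% and 7% of all genes were.

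Genes most like the 10 were sought by Pearson's r of log2(scaled CPM + 1) over the 24 libraries with the mean standardised profile of the 10, among 19338 genes above background in at least 1 tumor. The 24 libraries come from 4 tumors and share their background. Among the 8 highest were Tspan1 (0.981), Krt20 (0.965), Elf3 (0.955), Pigr (0.945), Slc6a14 (0.929) and Sptssb (0.928). Of these Krt20, Elf3, Pigr and Slc6a14 were on the epithelial lists. Tspan1 held 19.9 scaled CPM in APC-KO tumor 2, 18.1 in APC-KO tumor 1, 49.4 in APC-WT tumor 2 and 11.04 in APC-WT tumor 1. Among the 10 themselves r with the mean profile ran from 0.613 for Dmbt1 and 0.692 for Krt18 to 0.974 for Krt19. Each of the 10 is part of that mean, which raises its r.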

How the data were processed

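The deposited table holds raw counts, as whole numbers, for 55487 Ensembl IDs in each of 24 libraries. The submitters' processing notes name build mm9 and the tools HISAT2, StringTie and bcl2fastq (2.20.0); their roles, strand and annotation are not given in the sources used here. Symbols, positions (GRCm38) and exon lengths came from GENCODE M21 by gene ID (55227 IDs). From the counts the following was computed in R 4.3.3 (edgeR 4.0.16, limma 3.58.1, DESeq2 1.42.0) and Python 3.11.15. Expressed genes had a mean of at least 10 CPM over the tumors and 10 times the expected background, leaving out 12 satellite-like loci (a share of 0.1 or more of a locus's 15-mers found in Gm10800). The background-subtracted fit takes the expected background off each count. edgeR's quasi-likelihood test compared sums of the 6 libraries for the genotype (2 against 2 tumors) and the 24 libraries in 1 fit within a genotype, with Benjamini-Hochberg adjustment at 0.05 over all genes. SE is of the log2 change.

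The 10 genes and the lists were chosen with earlier results of these data known. Named from each epithelial list were up to 4 called genes with the smallest p per comparison, the 8 genes most like the 10, the sort antigens and the pseudogenes of Krt8 and Krt18. Some genes that this rule takes are not reported here. Further copies were named for sharing at least 0.1 of a member's 31-mers. On simulated counts the test recovered 91% of changes of 1 log2 unit between the APC-WT tumors with 7 false calls among 28748 genes, and 51% with 5 false calls among 49742 genes for the sums. Every simulated gene had the same set spread, and no background differed between tumors. TMM over all genes was used, without the background limit. These rates therefore do not measure recovery or false calls in the real counts. Other scalings, limits, tools and left-out libraries were tried. No 2 libraries of a tumor agreed within sampling noise.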

Additional observations from a re-analysis of the deposited data

Results flagged for a closer look

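Of 164 sets of 6 libraries (41 genes in 4 tumors), 9 had a library set apart from the other 5 by Dixon's test, and chance gives about 1 in 20. None concerned the 10 epithelial genes. Sox9 was 87.5 scaled CPM in APC-KO tumor 2 replicate 3, where the others reached 70.7 to 76.9. Lyz1 was 63.5 in APC-KO tumor 1 replicate 4 (others 14.7 to 30.2), 68.5 in APC-KO tumor 2 replicate 6 (others 13.1 to 30.9) and 35.0 in APC-WT tumor 1 replicate 5 (others 56.7 to 65.5). Klf5 was 21.2 in APC-WT tumor 2 replicate 5 (others 26.1 to 27.9), and Cdhr2 was 50.2 in APC-WT tumor 2 replicate 4 (others 43.4 to 45.9). Clca1 was 0.744 in APC-WT tumor 1 replicate 1 (others 1.69 to 2.18), and Chgb was 44.0 in APC-KO tumor 1 replicate 2 (others 18.4 to 26.9). Adgre1, a sort antigen, was 328 in APC-KO tumor 2 replicate 1 (others 262 to 286). The reasons were not tested.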

How the results depend on the processing

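Of 530 values of named list genes under an alternative, 26 lost the call and 4 changed sign, all 4 with TMM over all genes: -3.07 for Lgals3 and -2.75 for Sox9 between genotypes, and -0.95 for Sox9 and -0.20 for Reg3b between the APC-WT tumors. Of 460 values of the 10 members, which have no call, 32 moved by more than the spread and 15 changed sign. Of these, 10 were between genotypes, 1 was between the APC-WT tumors (Cdh1, -0.52 with TMM over all genes) and 4 between the APC-KO tumors with 1 library left out, where Cdh1, Car1 and Cyp2c55 lay near 0. List genes higher in the APC-KO tumors than in the APC-WT tumors numbered 5, and 12 in the fit on libraries, 3 by DESeq2, 1 with the highest receptor gene as the limit, 82 with no limit and 3 to 13 with 1 tumor left out. Those lower numbered 3, and 9 in the fit on libraries, 9 after background subtraction and 2 to 23 with 1 tumor left out. With TMM over all genes edgeR called 0 each way, with 10 higher and 72 lower at an unadjusted p under 0.05 before the background limit. Between the APC-KO tumors 1 was higher, and 3 after background subtraction, by DESeq2 or with no limit, and 1 to 3 with 1 library left out; 3 were lower, and 2 to 3 with 1 library left out. Between the APC-WT tumors 86 were higher, and 48 with the highest receptor gene as the limit, 143 with no limit and 86 to 87 with 1 library left out; 1 was lower, and 16 with TMM over all genes. Of the 10 members, 1 and 0 were above the highest receptor gene in APC-KO tumors 2 and 1, and no left-out library changed the counts of 6, 6, 10 and 10. The causes were not tested. Over all pairs of tumors, replicate numbers did not pair libraries, and 10 of 72 best matches fell on the same number. Deviations of same-numbered libraries correlated between -0.503 and 0.785. Between the APC-WT tumors, replicates 1, 2, 5 and 6 correlated at 0.65, 0.66, 0.785 and 0.676, and replicates 3 and 4 at -0.495 and -0.242. With a replicate block the counts remained 86 higher and 1 lower between the APC-WT tumors and 1 higher and 3 lower between the APC-KO tumors. Genes under about 14.5 scaled CPM per kb in APC-KO tumor 2 and 13.4 in APC-KO tumor 1 could not be told from background. This limits Cdh1, Cyp2c55, Ces2a and Dmbt1 there.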
